A study of Ovis aries with 6 samples.

Results

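The cytochrome P450 genes CYP11A1, CYP17A1, CYP11B1 and CYP1A1, which act on steroids and foreign compounds, were followed in sheep skin. They were found as all non-control probes of the array whose sheep RefSeq mRNA accession belongs to 1 of the 4 genes, which gave 6 of 15008 probes. They are 4 of the 476 genes that could be named. The animals were 1 ram and 2 ewes of the Aohan fine wool breed, aged 12 months and with the same father, and skin was taken in its full thickness. Each animal gave wool-bearing skin from the body side and skin without wool from the groin, so that each site had 3 arrays. The study looked for genes that go with wool in its growth phase, anagen. The labels name no treatment or transgene, and the groups are limited to 1 breed, 1 age and 1 ram. Full-thickness skin mixes follicles, glands, epidermis, dermis and vessels, and in such samples more cells of a type and more RNA per cell cannot be told apart.

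Cytochromes P450 are haem enzymes that insert oxygen into lipids, steroids and foreign compounds. CYP11A1 sits in the mitochondrion and cuts the side chain of cholesterol, the first step of every steroid hormone. CYP17A1 then hydroxylates its products and, by its lyase activity, opens the route to androgens, and CYP11B1 completes cortisol. CYP1A1 oxidises polycyclic aromatic compounds and is a classic target gene of the aryl hydrocarbon receptor. Skin is known to hold parts of the steroid pathway in its follicles and sebaceous glands, and its epidermis induces CYP1A1 on contact with aromatic pollutants or light-derived ligands.

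The 4 genes did not share a pattern. CYP17A1 was higher on the body side, by 6.88-fold on its brighter probe. CYP1A1 was lower there by 28.2-fold, one of the larger falls on the array. CYP11A1 and CYP11B1 were well above background on 1 of 3 body side arrays at most, and the scaled differences of their tested probes were smaller than the median of probes at background. The 4 genes were chosen by their site difference in these same arrays, so these differences are descriptions and carry no test. On the scaled values, the sites did not overlap for 4 of the 5 tested member probes, 3 higher and 1 lower on the body side. The same held for 75.2% of all 13278 tested probes (39.8% higher and 35.4% lower), so nothing is read from that count.

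Levels are given as log2 processed signal after subtraction of the 75th percentile of its array, so that 0 is the brightness of a probe at that percentile. The scaling matters because the body side arrays were dimmer. Their 75th percentile lay between 1103 and 2048 intensity units, against 3677 to 4401 on the groin arrays, a mean log2 difference of -1.57. Between 10730 and 13384 probes were well above background on a body side array and between 13523 and 14053 on a groin array. All groin arrays came from 1 scan and all body side arrays from a different one, and the scan and the site cannot be told apart in these data. Of the 751 probes well above background on no array, 745 were higher on the body side on this scale, with a median log2 difference of 1.48 (quartiles 1.14 and 1.75). Without scaling their median difference was -0.10. Probes at background thus read higher on the body side on the scaled values.

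CYP11A1, the entry enzyme, had 2 probes. The brighter, A_70_P039757, read -5.63, -6.77 and -7.11 on groin replicates 1 to 3, all well above background. On body side replicates 1 to 3 it read -6.76, -6.29 and -5.66, and only replicate 2 was well above background there. The groups overlapped. Their means were -6.50 ± 0.77 for the groin and -6.24 ± 0.55 for the body side (SD, n = 3 each), with a log2 difference of 0.27 ± 0.41 SE. The sign of that value turned without scaling (-1.30), without replicate 3 (-0.32), without groin replicate 3 (-0.03) and without body side replicate 3 (-0.02). In intensity units the spot gave 74.0, 38.2 and 31.9 in the groin and 10.2, 26.2 and 22.4 on the body side, so that every groin array was brighter before scaling.

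The dimmer CYP11A1 probe, A_70_P039756, was well above background on none of the 6 arrays. Its signals ran from 5.17 to 8.87 units in the groin and from 6.67 to 13.6 on the body side. Spot over local background was between 1.29 and 1.43 throughout, against 1.70 to 2.33 for the brighter probe. The scaled log2 difference of 2.04 has the direction of the other background probes and no fold is given for it.

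CYP17A1, the hydroxylase and lyase, also had 2 probes, and 1 of them, A_70_P012531, was spotted 5 times on each array. That probe read -0.78, -1.48 and -1.12 on groin replicates 1 to 3 and 1.64, 1.46 and 1.86 on body side replicates 1 to 3. The lowest body side array lay well above the highest groin array. The means were 1.66 ± 0.20 and -1.13 ± 0.35 (SD, n = 3 each), and the log2 difference was 2.78 ± 0.22 SE. Only 102 of the tested probes had a larger rise. Probes of similar brightness (the eighth of 10 equal groups) had a median difference of 0.25.

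The unscaled signals of A_70_P012531 showed the same order. The mean of the 5 spots was 2135, 1498 and 2025 units on the groin arrays and 3437, 5648 and 4114 on the body side arrays, although these were the dimmer arrays. The log2 difference without scaling was 1.21, or 2.31-fold. The SD over the 5 spots of an array was between 0.05 and 0.17 on the log2 scale. All 5 spots were well above background on all 6 arrays.

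The second CYP17A1 probe, A_70_P012532, differed by much less. It read -3.09, -3.50 and -2.97 in the groin and -2.39, -2.10 and -2.39 on the body side, again without overlap. The log2 difference was 0.89 ± 0.20 SE, or 1.86-fold, and it turned to -0.68 without scaling. Scaling cancels in the ratio of both probes within an array. This log2 ratio, of the brighter to the dimmer probe, was 2.31, 2.02 and 1.85 on the groin arrays and 4.03, 3.57 and 4.25 on the body side arrays. Among 195 named genes with at least 2 tested probes, the median gap between the probes' site differences was 0.35, and 15 genes had a gap above the 1.89 of CYP17A1. The size of the CYP17A1 difference depended on the probe, and the mean of its probes gave 1.84. The gene table lists a second gene, CYP17, next to CYP17A1, and which of these copies each probe binds was not tested.

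**Figure D1:**
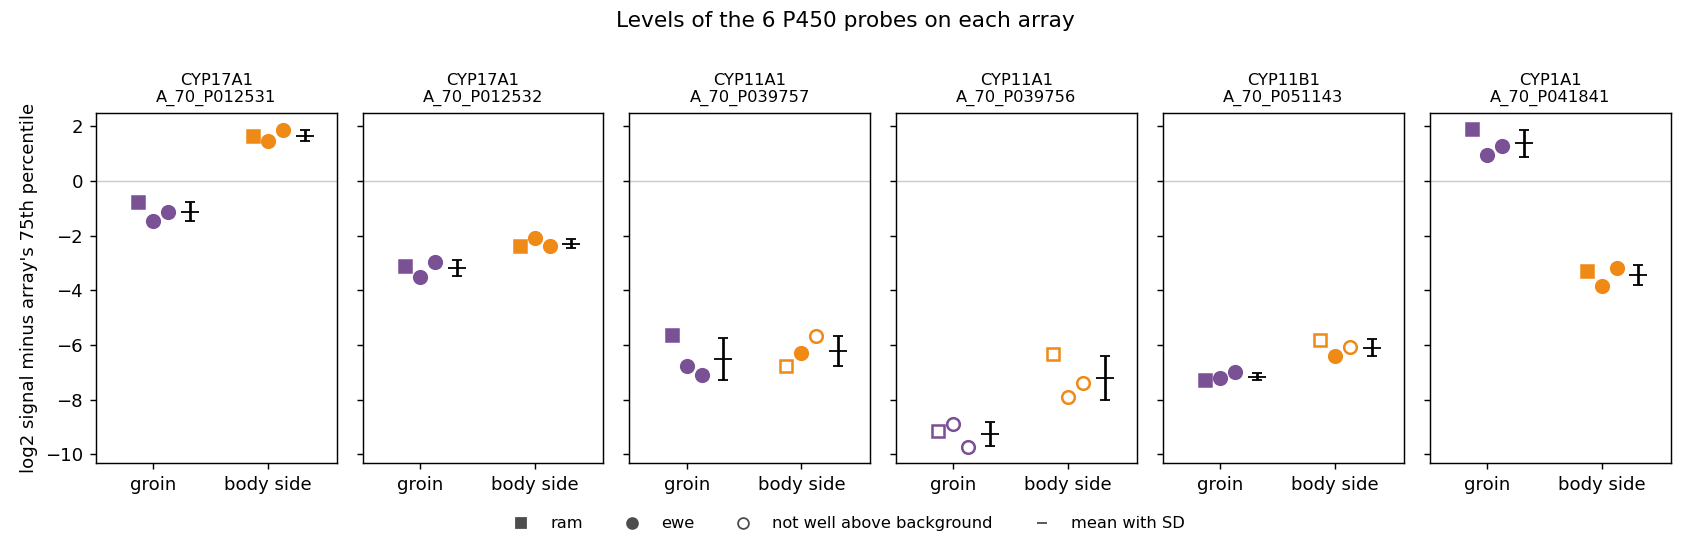
Level of each of the 6 P450 probes (log2 signal relative to the array's 75th percentile) by body site, with squares for the ram, circles for ewes, open symbols for arrays where the probe was not well above background, and the mean with SD of 3 arrays beside them. CYP17A1 probe A_70_P012531 sat at -1.13 in the groin and 1.66 on the body side, and CYP1A1 at 1.37 and -3.44, while the CYP11A1 and CYP11B1 probes lay between -9.73 and -5.63.

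CYP11B1, the enzyme that completes cortisol, had 1 probe, A_70_P051143, spotted 5 times on each array. It read -7.27, -7.21 and -6.99 in the groin and -5.81, -6.41 and -6.07 on the body side, without overlap, and the log2 difference was 1.06 ± 0.20 SE. That value was below the median of 1.48 for probes at background. In intensity units the spots averaged 23.9, 28.2 and 34.6 in the groin and 19.7, 24.0 and 16.8 on the body side, a log2 difference of -0.52 without scaling, so that the direction turned. No direction is given for CYP11B1, since the scaled and unscaled values have opposite signs.

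Spot counts of CYP11B1 are not scaled between arrays and give no direction either. Of the spots without an outlier flag, 3 of 5, 3 of 4 and 4 of 5 were well above background on groin replicates 1 to 3, and 0 of 4, 4 of 5 and 0 of 5 on body side replicates 1 to 3. The SD of the spots within an array reached 1.24 on the log2 scale (body side replicate 2), against an SD of 0.30 over the body side arrays. The brightest spot anywhere among those kept gave 48.7 units.

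CYP1A1, the aryl hydrocarbon receptor target, had 1 probe with 1 spot, A_70_P041841. It read 1.91, 0.94 and 1.27 on groin replicates 1 to 3 and -3.30, -3.86 and -3.17 on body side replicates 1 to 3. The groups lay far apart, at 1.37 ± 0.49 in the groin and -3.44 ± 0.36 on the body side (SD, n = 3 each), with a log2 difference of -4.82 ± 0.29 SE. In intensity units the groin arrays gave 13843, 8009 and 10588 and the body side arrays 112, 141 and 126, a gap of 83.9-fold before scaling. The probe was well above background on all 6 arrays, and its spot was still between 4.02 and 4.10 times its local background on the body side, so the low side is a measured level and not a bound. Of the 13278 tested probes, 35 had a larger fall, while probes of similar brightness had a median difference of -0.13. As a single spot of a single probe, the value has no check by a second sequence.

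**Figure D2:**
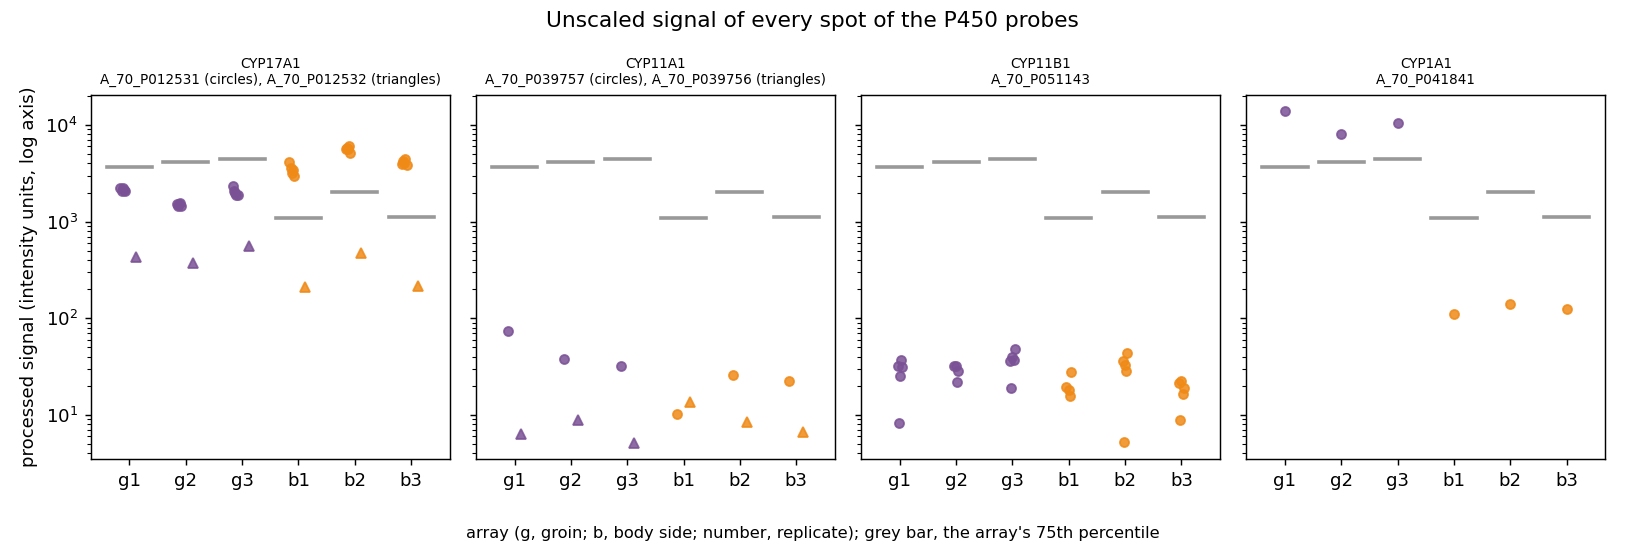
Processed signal of every spot without an outlier flag of the P450 probes, in intensity units on a log axis, for groin arrays g1 to g3 and body side arrays b1 to b3, with a grey bar at the 75th percentile of each array. CYP17A1 probe A_70_P012531 lay below the bar on the groin arrays and above it on the body side arrays, CYP1A1 did the reverse, and the CYP11A1 and CYP11B1 spots stayed under 75 units on every array.

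CYP17A1 and CYP1A1 were also set against each other within each array, where scaling cancels. The log2 signal of A_70_P012531 minus that of A_70_P041841 was -2.70, -2.42 and -2.39 on the groin arrays and 4.94, 5.32 and 5.03 on the body side arrays. The change in this difference was 7.60 on the log2 scale. It shows unequal change of the 2 genes and gives no order of their levels, since the probes differ in sequence.

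The choice of scaling set the size of the differences and, for the dim genes, their sign. For CYP17A1 probe A_70_P012531 the log2 difference was 2.69 with normexp background correction, 2.71 with quantile normalization, 3.24 with median centring and 2.90 with the authors' log2 table, and it stayed between 2.61 and 2.96 when arrays were left out. CYP1A1 was at -4.26, -4.88, -4.36 and -5.19 under the same 4 settings and between -5.03 and -4.55 in the leave-outs. The sign of both was also kept without scaling. The probes A_70_P012532, A_70_P039757 and A_70_P051143 were above 0 in each of these 4 settings and below 0 without scaling.

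**Figure D3:**
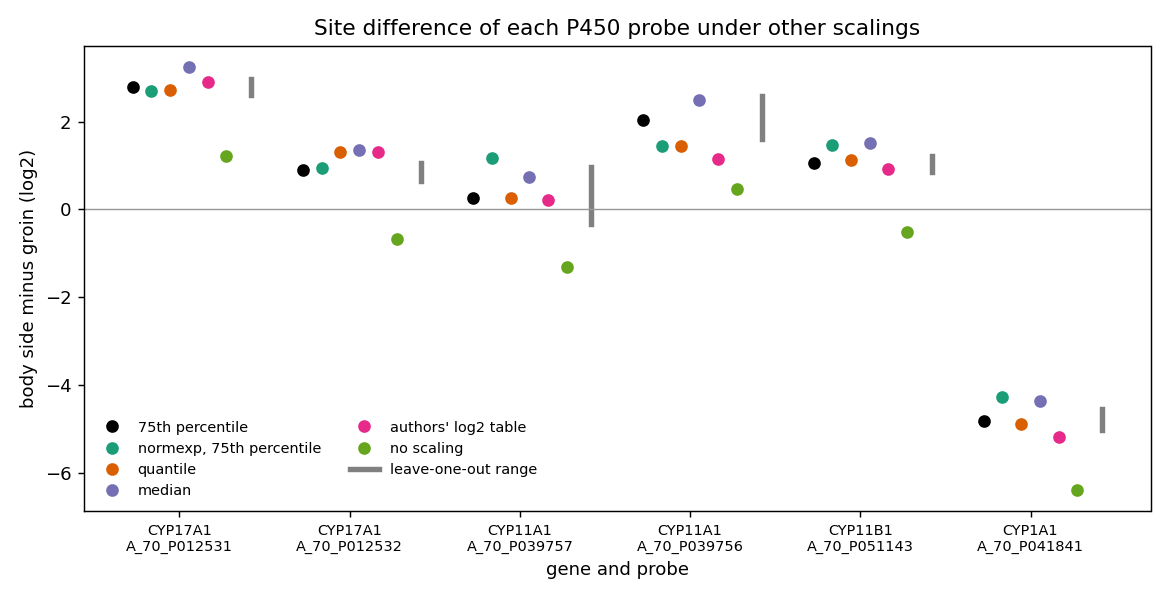
Body side minus groin difference (log2) of each P450 probe with 75th percentile scaling and 5 other treatments of the values, and as a grey bar the range over leaving out arrays. Only CYP17A1 probe A_70_P012531 and the background probe of CYP11A1 stayed above 0, and only CYP1A1 below 0, in every treatment shown.

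The contrast between the ram and the ewes was not used in the choice of genes. It was tested as the difference of the site differences (limma interaction of site and sex, Benjamini-Hochberg over 13250 probes), where 0.113% of probes passed. No P450 probe passed without a block for the replicate number. For CYP17A1 probe A_70_P012531 the site difference was 2.42 in the ram and 2.96 in the ewes, and the interaction was -0.54 ± 0.45 SE (adjusted p = 0.937). For CYP1A1 it was -5.21 in the ram and -4.62 in the ewes (interaction -0.59 ± 0.49, adjusted p = 0.937), and for CYP11B1 1.46 and 0.86 (0.60 ± 0.43, adjusted p = 0.876). The brighter CYP11A1 probe differed most, at -1.12 in the ram and 0.97 in the ewes (-2.09 ± 0.48, adjusted p = 0.158), and it passed with a replicate block (adjusted p = 0.00977) and was at -0.30 with normexp (adjusted p = 0.998). The ram's body side array gave 10.2 units for this probe and was not well above background. With 1 ram, sex and animal cannot be told apart, and the spread comes from the ewes, since the ram's lone array at each site is assumed to vary like theirs.

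In the groin the ram was the brightest of the 3 arrays for CYP17A1 probe A_70_P012531 (0.51 above the mean of the ewes), for the brighter CYP11A1 probe (1.30 above) and for CYP1A1 (0.81 above). On the body side it lay between the ewes for CYP17A1 probe A_70_P012531 and CYP1A1 and below them for CYP11A1. For CYP11B1 the ram was the dimmest groin array and the brightest body side array. For CYP17A1 probe A_70_P012532 it lay between the ewes in the groin. These are values of 1 animal.

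Of 216 entries in lists of steroid and xenobiotic genes, 26 other genes had a named probe and 22 were tested. With 75th percentile scaling 12 were higher on the body side, 2 were lower and 8 did not pass (limma adjusted p under 0.05), against 69.9% of all tested probes that were called, 37% higher and 32.8% lower. The median log2 difference of the 22 genes was 0.71, that of all tested probes 0.10. With quantile normalization and with the authors' log2 values, 8 of the 22 were called higher and 6 lower. Without scaling 1 was called higher and 15 lower, so most of these directions hold only relative to the array. The count of calls went from 14 to 5 without replicate 3, to 8 without body side replicate 3 and to 9 without groin replicate 3. The 5 called without replicate 3 were INHBA, PRL, FSHR, CGA and NR3C1. NR3C1, also 1 of the 2 lower genes, was bright enough to be tested only through the groin arrays. Nothing is therefore read from its call.

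Around the first steps, STAR, which carries cholesterol to CYP11A1, rose by 0.70 ± 0.21 SE (adjusted p = 0.0156), and its second probe by 0.68. SQLE, a step of cholesterol synthesis, rose by 0.89 ± 0.26 (adjusted p = 0.0156) but fell with quantile normalization (-0.46) and with the authors' log2 table (-0.49), and its second probe did not pass (0.44). TSPO, a protein of the outer mitochondrial membrane, differed by -0.28 ± 0.18 and did not pass, although it fell with quantile normalization (-0.70). CYP19, the aromatase that turns androgens into oestrogens, was well above background on 1 array per site by its brighter probe and was not tested. Without scaling STAR and SQLE were at -0.87 and -0.68.

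Cortisol handling gave no common direction. HSD11B2, which inactivates cortisol, rose by 0.82 ± 0.30 SE (adjusted p = 0.0387), with its second probe at 0.70, but its groups overlapped and it did not pass with quantile normalization (0.62). HSD11B1, which regenerates cortisol, differed by 0.02 ± 0.37 on its brighter probe and did not pass, although that probe fell by 1.09 both with quantile normalization and with the authors' log2 table (adjusted p = 0.0114 and 0.00980). With 75th percentile scaling its other probe fell by 1.28 ± 0.35 (adjusted p = 0.0114). NR3C1, the glucocorticoid receptor, was well above background on all 3 groin arrays and on none of the body side arrays. Its groin level is given as at least 1.32-fold higher with 75th percentile scaling. It was bright enough to be tested only through the groin arrays, so no p is given. With normexp NR3C1 was at 0.48 and did not pass. ESR2, an oestrogen receptor, rose by 0.95 ± 0.28 (adjusted p = 0.0163) and was at -0.63 without scaling. ESR2 did not pass without replicate 2 (0.60) or without replicate 3 (0.97), and its other probe was too dim to be tested.

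Among hormones and receptors that act upstream of steroid synthesis in the endocrine organs, 6 of 10 tested genes rose and none fell on the scaled values. Of all tested probes 69.9% were called, 37% higher and 32.8% lower, so nothing is read from that count. The direction of the calls also depended on the scaling. INHBA, a subunit of activin and inhibin, rose by 2.37 ± 0.17 SE (adjusted p = 2.34e-05), with its other probe at 2.34. PRL, prolactin, rose by 1.76 ± 0.29 (adjusted p = 8.81e-04), with its other probe at 1.43. FSHR, the follicle-stimulating hormone receptor, rose by 1.63 ± 0.37 on a probe whose partner was above background on no array, and the same was true of CGA, the alpha subunit of the glycoprotein hormones (2.15 ± 0.63). The CGA value was 1.33 without groin replicate 2 and 1.24 without replicate 2. LHB, the luteinising hormone beta subunit, rose by 0.60 ± 0.18 but fell with quantile normalization and with the authors' log2 table (-0.46 each), and with normexp it did not pass (0.31).

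Of that list, INHBA, PRL, FSHR and CGA stayed above 0 without scaling, at 0.80, 0.18, 0.05 and 0.57, and INHBA alone was then called higher. GHR, the growth hormone receptor (0.84 ± 0.44 SE), and AGTR1, an angiotensin receptor (-0.35 ± 0.32), did not pass. GHR was called higher with normexp (1.00, adjusted p = 0.0254) and median centring (1.30, adjusted p = 0.0233), and was at 0.31 without body side replicate 1. AGTR1 was called lower with normexp (-0.50, adjusted p = 0.0154) and without body side replicate 1 (-0.73, adjusted p = 0.0103). MC2R, the corticotropin receptor of the adrenal cortex, FSHB and GH were well above background on none of the 6 arrays and were not tested. POMC, the precursor of corticotropin, and CRHR1, a receptor for corticotropin-releasing hormone, did not pass, at -0.15 and 0.18, although CRHR1 was called higher with normexp (0.68, adjusted p = 0.0132).

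In the xenobiotic list, 2 of 5 tested genes rose and 1 fell, a share below the 69.9% of all tested probes that were called. CYP3A24, a drug-oxidising P450, rose by 0.71 ± 0.25 SE (adjusted p = 0.0339), but its groups overlapped. Without scaling CYP3A24 was at -0.86, and it did not pass without replicate 1 (0.54) or without replicate 3 (0.51). ABCG2, an efflux transporter, rose by 1.02 ± 0.33 (adjusted p = 0.0219), a call that ended with quantile normalization (0.35). ALDH1A1, an aldehyde dehydrogenase that makes retinoic acid, fell by 0.76 ± 0.26 (adjusted p = 0.0277) but did not pass with median centring (-0.31). ABCB1, another efflux transporter, differed by -0.46 ± 0.19 on its brighter probe (adjusted p = 0.0541). Its other probe fell by 2.34 ± 0.41 and was well above background on 1 of 3 body side arrays. That probe was bright enough to be tested only through the groin arrays, so no p is given. The mean of both probes, which includes it, fell by 1.397. With normexp the brighter ABCB1 probe was at 0.20. UGT1A9, a glucuronosyltransferase, differed by -0.45 ± 0.46 and did not pass, but it fell by 0.97 without body side replicate 1 (adjusted p = 0.0155). The aryl hydrocarbon receptor and its partners had no named probe. Outside the lists, and chosen after their values were seen, the P450s CYP2J and CYP4F21 had named probes: both CYP2J probes fell, by 1.21 and 2.41, and CYP4F21 rose by 1.70.

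**Figure D4:**
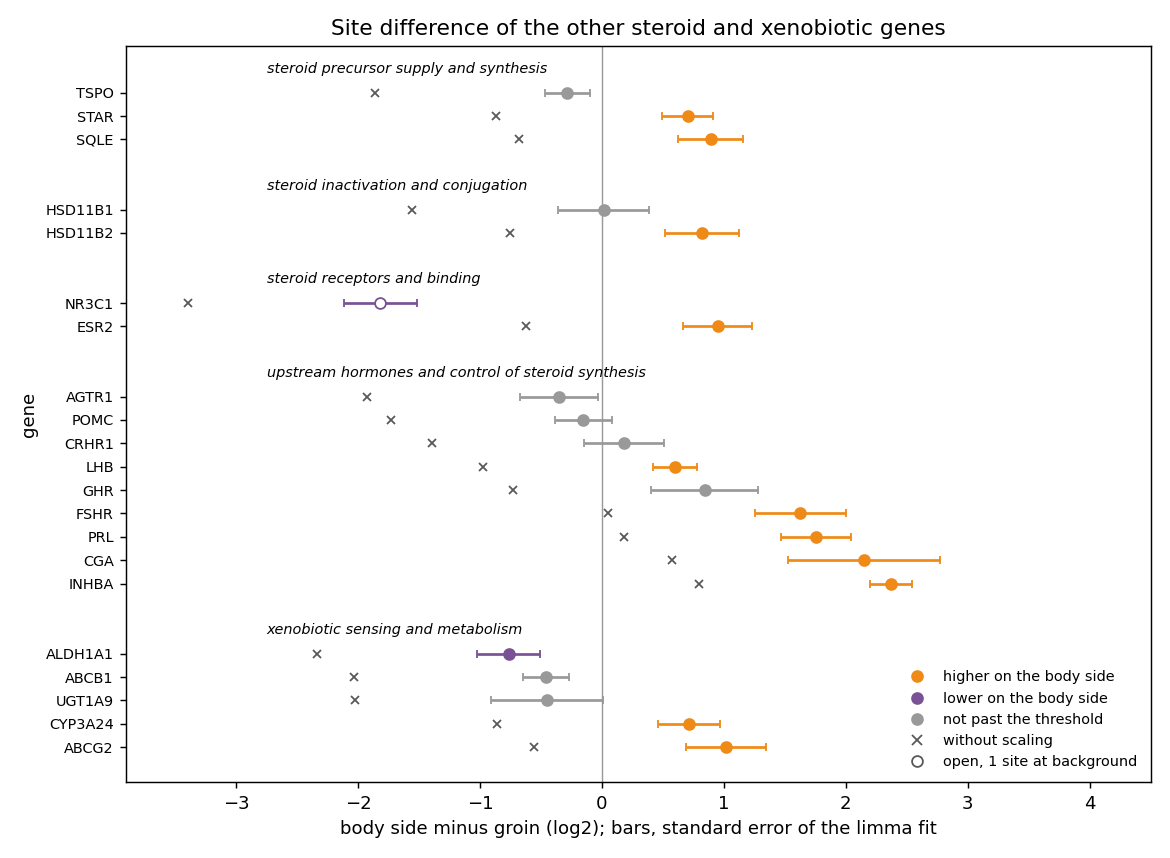
Body side minus groin difference (log2) of the tested list genes by group, 1 gene left out, with the SE of the limma fit, coloured by call, and as a cross the difference without scaling between arrays. The open symbol marks NR3C1, which was not well above background on any body side array. INHBA is the highest at 2.37, and the crosses of most genes lie below 0.

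The other P450 probes were less far from the bulk of the array. For CYP17A1 probe A_70_P012532, 3394 tested probes had a larger rise, for CYP11B1 2685 and for CYP11A1 probe A_70_P039757 6005. When the tested probes were put into 10 groups by brightness, the median site difference was -0.42 in group 5, which holds A_70_P012532, and -0.40 in the dimmest, which holds the CYP11A1 and CYP11B1 probes. In the brightest group it was 1.14.

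**Figure D5:**
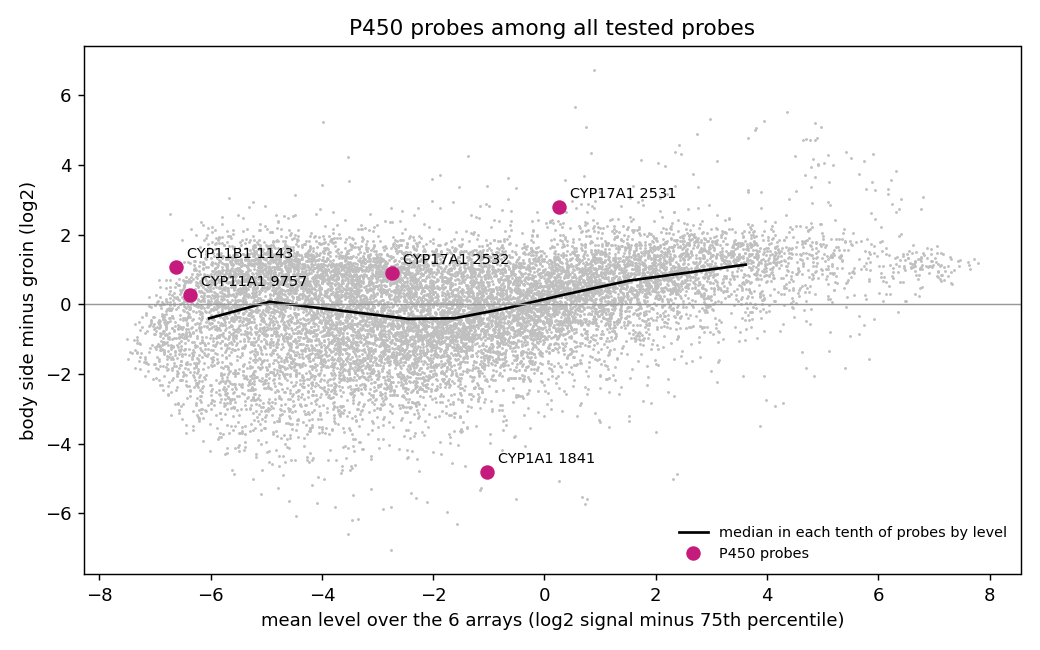
Body side minus groin difference (log2) against the mean level over the 6 arrays for the 13278 tested probes, with the 5 tested P450 probes in colour, labelled by gene and the end of the probe name, and a line through the medians of 10 groups of probes by level. CYP17A1 probe A_70_P012531 (2.78) and CYP1A1 (-4.82) lie at the edges of the cloud.

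Markers of other cell types moved between the sites as well. All 8 tested wool follicle genes rose, also above 0 without scaling, and their summed scaled signal ran from 72.5 to 88.3 in the groin and from 589 to 1020 on the body side. The follicle genes were thus highest in the samples labelled as wool bearing. Of 7 genes of the sebaceous gland and lipid synthesis, 2 rose (ACACA and DGAT1, which were below 0 without scaling), 3 fell (SCD, ACLY and PLIN2) and 2 did not pass, with sums from 16.0 to 17.3 in the groin and from 7.27 to 9.54 on the body side. SCD was well above background on none of the body side arrays and was tested only through the groin arrays, so nothing is read from its call. Both endothelial genes fell (0.312 to 0.371 against 0.145 to 0.168). The blood sum (1.58 to 2.28 against 0.203 to 0.541) and the mast cell sum (2.55 to 2.85 against 1.38 to 1.63) were lower on the body side as well. The 2 blood genes moved apart, with CA1 at -7.06 and HBB at 1.70. CA1 was well above background on 1 of 3 body side arrays and was tested only through the groin arrays. Of 3 mast cell genes, 1 fell (TPSB2), 1 rose (FCER1A) and 1 did not pass on the body side. Sums that were higher there were those of skeletal muscle (groin first, 3.49 to 4.68 against 7.003 to 9.316), lymphocytes (3.16 to 3.71, 6.76 to 8.19), myeloid cells (2.55 to 3.27, 4.69 to 6.13), fibroblasts (103 to 117, 175 to 291) and melanocytes (0.0363 to 0.0424, 0.109 to 0.162). Within 4 of these lists genes were called in both directions. Higher and lower calls numbered 4 and 1 for skeletal muscle, 3 and 2 for lymphocytes, 3 and 2 for myeloid cells, and 2 and 2 for fibroblasts. The lower calls were TNNC2, CD247, CR2, TLR4, IL1A, BGN and MMP2 (-3.71). Of these, TNNC2 and MMP2 were tested only through the groin arrays. The sweat gland, adipocyte and smooth muscle sums overlapped. In these lists no gene was without signal on every array. The summed markers of 10 of 13 lists did not overlap between the sites. Neither did 75.2% of all tested probes, so nothing is read from that count. The part of these cell types in the P450 differences was not tested.

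Likeness over the 6 arrays was described by the Pearson correlation of levels with 438 other named genes. The arrays fall into the groups of the sites, which also share a scan, so the values also carry the site difference. CYP17A1 was most like H2AZ1, a histone variant (r = 0.996), CRHBP, which binds corticotropin-releasing hormone (0.994), and SFTPC (0.994). CYP1A1 was most like IGFBP1 (0.989), SLC25A4 (0.986) and CR2 (0.983), whose site differences of -1.35, -0.47 and -1.68 were far smaller than its own. CYP11B1 was most like SLC39A13 (0.991), BCAT1 (0.989) and PRP2 (0.988). CYP11A1 was most like CSN1S2 (0.913) and CRHR1 (0.815), with site differences of 0.67 and 0.18.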

How the data were processed

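Each of 3 groin and 3 body side skin samples had its own 1-colour Agilent sheep array with Cy3-labelled RNA, per the labels' protocols. Per the submitters' processing notes, Agilent Feature Extraction 10.5.1.1 gave the deposited intensity values. The deposited processed signal is corrected for background and detrended within the array, per the file headers, and its array percentiles differ, so it is not scaled between arrays. The authors' deposited log2 table has a median of 8.31 in each column and correlated at 0.999 with the quantile-normalized log2 processed signals of the same array. Its scale is log2 and its direction that of the signals, and its background step is not given in the sources used here. The genome build is not given either, so no coordinates are printed.

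Control spots and spots with outlier flags (6 to 51 per array) were left out and no spot was saturated. Spots of a probe were averaged on the log2 scale, and each array's 75th percentile was subtracted. A probe was called well above background where over 50% of its spots were, and tested where this held on all 3 arrays of a site with at least 2 values per site, which left 13278 of 15008. Site differences came from limma 3.58.1 in R 4.3.3 (lmFit, eBayes, Benjamini-Hochberg, threshold 0.05), without a block. Standard errors are those of this fit, and the number of arrays limits the precision. The fit was also run on simulated data without a difference in brightness between arrays, so that run does not bear on scan or scaling. Within a site the replicates are different animals. The ram has number 1 in each site, but the labels do not tie numbers 2 and 3 to a given ewe. Probes were named through unversioned RefSeq accessions in a gene table of assembly ARS-UI_Ramb_v3.0, which named 734 and left 14274 unnamed. A gene is represented by its brightest tested probe.

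The 4 genes, the lists and the tests were chosen with earlier results of these data known. From each list up to 6 genes past the threshold and 2 others were named by smallest adjusted p, with POMC, CRHR1 and the untested genes added after their values were seen, and up to 3 genes per P450 by likeness. Results for some genes that these rules select are not reported here, though counts include them. Alternatives were normexp (offset 50), quantile, median and no scaling, the deposited log2 values, other filters, the mean of probes, a replicate block and leave-outs. No probe, promoter or protein sequence was used here.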

Additional observations from a re-analysis of the deposited data

Results flagged for a closer look

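The brighter CYP11A1 probe, A_70_P039757, stood out because its site difference ran one way in the ram (-1.12) and the other way in the ewes (0.48 and 1.45 by replicate number, 0.97 on average). The difference between the animals was -2.09 ± 0.48 SE and did not pass after adjustment (limma interaction, adjusted p = 0.158, unadjusted p = 0.00132). With normexp background correction the difference was -0.30 (adjusted p = 0.998), and over all settings run the adjusted p lay between 0.00977 and 0.998. The probe was not well above background on the ram's body side array, where it gave 10.2 intensity units.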

How the results depend on the processing

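The site differences of CYP17A1 probe A_70_P012531 and of CYP1A1 kept their direction in every setting run. Normexp gave 1.16 for CYP11A1 probe A_70_P039757, 1.46 for CYP11B1 and -4.26 for CYP1A1. Median centring gave 3.24 and 1.35 for CYP17A1 probes A_70_P012531 and A_70_P012532, 1.51 for CYP11B1 and -4.36 for CYP1A1. Without scaling the same genes were at 1.21, -0.68, -0.52 and -6.39, and CYP11A1 at -1.30 (A_70_P039757) and 0.46 (A_70_P039756). A_70_P012532 was at 1.31 with quantile normalization and 1.32 in the deposited log2 values, where A_70_P039756 was at 1.14. The mean of probes gave 1.84 for CYP17A1 and 1.15 for CYP11A1. Leaving out arrays gave 0.64 to 1.05 for A_70_P012532 and -0.32 to 0.97 for A_70_P039757. List genes called ran from 5 to 16 in the leave-outs. Over all probes, the share of calls that were higher was 53.0%, and 68.6% with normexp, 68.5% with median centring and 1.98% without scaling. Ram and ewe differences were called (limma) for 15 probes, 6 with median centring, 5 without scaling, 5 in the deposited values, 1 to 95 in the leave-outs of an ewe array, and 0 with normexp and with no filter on dim probes (392 and 1017 at an unadjusted p under 0.05). Without the ram this contrast could not be fitted. With a replicate block 243 were called, CYP11A1 probe A_70_P039757 among them (adjusted p = 0.00977), and 9211 site differences against 9279. The correlations of same-numbered arrays were 0.16, 0.09 and -0.09, and groin replicate 3 with body side replicate 2 also gave 0.16. These correlations could not tell pairs from other combinations. The labels do not tie numbers 2 and 3 to a given ewe, and the main fit did not take the numbers as pairs. Signal over background limits CYP11A1 and CYP11B1, and CYP1A1 rests on 1 spot per array.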
